A study of Homo sapiens with 4 samples.

Results

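The genes described here encode histones, the proteins that package DNA, and fall into 2 classes: replication-dependent genes of the clusters and variant genes. They were taken from a microarray table of U2OS cells, a human osteosarcoma line. Genes were chosen by symbol: H1, H2A, H2B, H3 and H4 symbols of the clusters, and the variants H1-7, H1-8, H1-10, H2AX, H2AZ, H2AJ, H3-3 and macroH2A. Pseudogenes and antisense RNAs were left out. Of the 21469 genes with a row of their own, 40 qualified, 32 of them replication-dependent and 8 variant.

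The treated cells received nocodazole, a microtubule-depolymerising drug that arrests cells in mitosis, and the controls received the solvent DMSO, both for 48 h. Each group had 2 arrays, replicates 2 and 3, from separate biological replicates per the series text. All 4 samples shared the same synchronisation, 24 h without serum, 24 h of thymidine (which blocks DNA synthesis) and 3 h of release, and all titles include PLKO.1, a name left unexplained in the labels. The series title is about the senescence-associated secretory phenotype in cells that have slipped out of mitotic arrest. U2OS is 1 cell line, and the share of cells in mitosis, slipped or in another phase is not given in the sources used here. Of listed marker genes, 9 of 9 measured mesenchymal and osteoblast genes lay above array background on all 4 arrays. So did 5 of 5 epithelial genes, 3 of 4 haematopoietic genes and 1 of 3 endothelial genes.

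Replication-dependent histone genes supply the core and linker histones needed to package newly copied DNA. Their genes have no introns and lie in clusters, and their mRNAs end in a stem-loop instead of a poly(A) tail. They are transcribed mainly in S phase through the coactivator NPAT, and their mRNAs are bound by the stem-loop binding protein SLBP and degraded when DNA synthesis stops. Variant histone genes lie outside the clusters, and their proteins replace or add to the clustered histones at particular places in chromatin. Most of these genes, but not all, are active through the whole cell cycle or in germ cells.

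The promoters of 7 members are shown because the results turn on these genes: the 3 that passed the test, 2 that came near it in the H1 and H2B families, H2BC21, whose change was 0.00, and the variant H2AZ2. Each is the 250 bases before the annotated start in RefSeq (GRCh38.p14), read along the gene 5′ to 3′. Capitals mark matches to 5 short motifs on either strand: the octamer ATTTGCAT, the H1 box AAACACA, the CCAAT box CCAAT, the TATA box TATAAA and the E2F motif TTTNGCGC. In H2BC11 a pair of TATA matches on opposite strands overlap, and a CCAAT match adjoins the E2F match.
H2AC21, chr1:149887966-149888215, minus strand: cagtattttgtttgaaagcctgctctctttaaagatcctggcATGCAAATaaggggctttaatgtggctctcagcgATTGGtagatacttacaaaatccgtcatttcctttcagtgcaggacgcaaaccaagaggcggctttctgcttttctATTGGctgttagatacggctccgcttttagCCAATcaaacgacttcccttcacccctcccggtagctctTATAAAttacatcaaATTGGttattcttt
H2BC14, chr6:27814772-27815021, plus strand: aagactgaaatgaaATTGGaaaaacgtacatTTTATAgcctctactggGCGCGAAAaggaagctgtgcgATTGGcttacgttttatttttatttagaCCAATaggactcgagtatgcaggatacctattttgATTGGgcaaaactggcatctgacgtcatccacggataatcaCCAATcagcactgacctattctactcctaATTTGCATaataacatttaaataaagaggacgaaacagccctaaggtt
H1-4, chr6:26156079-26156328, plus strand: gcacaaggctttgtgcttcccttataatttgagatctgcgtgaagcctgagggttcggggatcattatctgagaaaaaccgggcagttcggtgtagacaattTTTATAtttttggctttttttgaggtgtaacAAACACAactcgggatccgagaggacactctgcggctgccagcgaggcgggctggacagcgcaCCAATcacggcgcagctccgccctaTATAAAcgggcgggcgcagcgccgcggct
H1-1, chr6:26017788-26018037, minus strand: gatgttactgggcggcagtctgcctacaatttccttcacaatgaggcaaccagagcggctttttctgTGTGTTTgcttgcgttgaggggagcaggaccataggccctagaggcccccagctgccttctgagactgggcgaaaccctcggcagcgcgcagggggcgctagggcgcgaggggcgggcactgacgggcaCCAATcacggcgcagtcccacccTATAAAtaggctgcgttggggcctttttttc
H2BC11, chr6:27132796-27133045, minus strand: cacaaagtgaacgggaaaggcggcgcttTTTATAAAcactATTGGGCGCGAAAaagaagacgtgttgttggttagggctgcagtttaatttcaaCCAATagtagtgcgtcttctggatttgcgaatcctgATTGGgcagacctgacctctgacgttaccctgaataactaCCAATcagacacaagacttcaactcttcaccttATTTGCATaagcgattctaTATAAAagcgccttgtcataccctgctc
H2BC21, chr1:149886683-149886932, minus strand: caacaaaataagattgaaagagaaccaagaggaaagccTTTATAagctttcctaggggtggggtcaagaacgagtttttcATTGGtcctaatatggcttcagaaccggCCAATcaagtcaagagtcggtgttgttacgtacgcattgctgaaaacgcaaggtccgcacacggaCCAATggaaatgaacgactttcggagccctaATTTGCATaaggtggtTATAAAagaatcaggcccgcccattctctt
H2AZ2, chr7:44848088-44848337, minus strand: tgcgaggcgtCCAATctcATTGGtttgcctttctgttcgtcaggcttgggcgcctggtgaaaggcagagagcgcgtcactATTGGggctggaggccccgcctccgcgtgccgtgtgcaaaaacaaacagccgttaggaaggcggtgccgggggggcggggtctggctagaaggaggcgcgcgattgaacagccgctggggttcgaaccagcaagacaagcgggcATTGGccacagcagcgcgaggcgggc

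Of the 40 members, 38 had a promoter in the RefSeq table, and H4C3 and HIST1H2AH were not matched. The octamer was in 17 of 30 replication-dependent promoters and in 0 of 8 variant promoters, against 1.66% of all 27305 promoters of the same length. It was found in 11 of 15 H2B and 6 of 8 H2A promoters and in 0 of 6 H1 promoters. The H1 box was in 6 of 6 replication-dependent H1 promoters and in 0 H2A or H2B promoters, against 4.95% of all promoters. 1 variant, the testis linker histone gene H1-7, had the H1 box too. The CCAAT box was in 29 of 30 replication-dependent and 5 of 8 variant promoters (33.0% of all), and the TATA box in 20 of 30 and 3 of 8 (11.1% of all). The E2F motif was in 8 of 30 replication-dependent promoters, all of H2A or H2B genes, and in 0 of 8 variant promoters (1.54% of all). These matches describe letters in a window and were not measured as bound sites. A match can lie far from the start: the only TATA match of H2BC14 was on the other strand, 219 bases before it.

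Within the shown promoters the octamer of H2BC14, H2BC11 and H2BC21 began 48, 47 and 46 bases before the start. That of H2AC21 lay on the other strand, 208 bases before the start. The H1 box began 117 bases before the start in H1-4 and, on the other strand, 183 bases before it in H1-1. A CCAAT box began 54 bases before the start in both linker histone genes. H2AZ2 held 4 CCAAT matches and none of the other motifs.

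With nocodazole 3 of the 40 histone genes were lower by limma's test at an adjusted p under 0.05, none was higher and 37 did not pass. The 3 were H2AC21, H2BC14 and H1-4, an H2A, an H2B and a linker histone gene, all replication-dependent. Over all 21469 genes 62 passed (0.289%), 21 of them lower (0.0978%) and 41 higher (0.191%). Values are log2 expression after quantile normalization of the 4 arrays, so a difference is relative to the array-wide shift, and adjusted p-values cover all 21469 genes. Errors of differences are limma's standard errors (SE, n = 2 per group). In RNA from whole cultures, fewer cells making histone mRNA and less histone mRNA per cell cannot be told apart.

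H2AC21, a core histone H2A gene on chromosome 1, had 8.34 and 8.30 on the nocodazole arrays, against 9.37 and 9.59 on the DMSO arrays. Both nocodazole arrays lay below both DMSO arrays by more than the distance between the arrays of either group. The log2 fold change was -1.16 ± 0.11 (limma adjusted p = 0.0139), so that the nocodazole level was 44.8% of the DMSO level. Its 95% interval ran from -1.42 to -0.89. On the deposited scale the values were 8.04 and 8.08 with nocodazole, against 9.57 and 9.92 with DMSO. It was the histone gene with the largest difference of the 40.

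H2BC14, a core histone H2B gene on chromosome 6, had 9.08 and 9.33 with nocodazole, against 10.03 and 10.10 with DMSO. Its groups did not overlap. The difference was -0.86 ± 0.11 (limma adjusted p = 0.0380), a level of 55.1% of DMSO. H1-4 encodes linker histone H1.4, which binds DNA between nucleosomes. It had 10.91 and 10.85 with nocodazole, against 11.55 and 11.55 with DMSO, where the normalization gave it the same value on both arrays. Its deposited values were 10.62 and 10.68 with nocodazole, against 11.64 and 11.85 with DMSO, so the normalized spread of its DMSO arrays is smaller than the deposited one. The log2 fold change of H1-4 was -0.67 ± 0.08 (limma adjusted p = 0.0294), or 62.7% of the DMSO level.

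These 3 calls depended on the scale and on how the variance was modelled. After centring each array on its median, the log2 fold changes were -1.26 for H2AC21, -0.94 for H2BC14 and -0.68 for H1-4, and none passed (limma adjusted p = 0.564, 0.9998 and 0.9998). When quantile normalization was run over all 64005 non-control rows, H1-4 had an adjusted p of 0.0586 and the other two still passed. Without a trend of variance with level none of the 3 passed (limma adjusted p = 0.128 for H2AC21, 0.197 for H2BC14 and 0.250 for H1-4), and 10 of all genes did, 0 of them lower. Without any 1 of the 4 arrays, limma called 0 of all 21469 genes, so the loss of these calls is not particular to histone genes. There the log2 fold changes were -1.28 to -1.04 for H2AC21, -0.98 to -0.72 for H2BC14 and -0.70 to -0.63 for H1-4. When genes with a mean at or below background were left out, 7 of 24 passed as lower: these 3, H2BC11, H2AC6, H1-1 and H2AC20. In that setting 0.391% of the 17667 genes passed as lower.

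**Figure D1:**
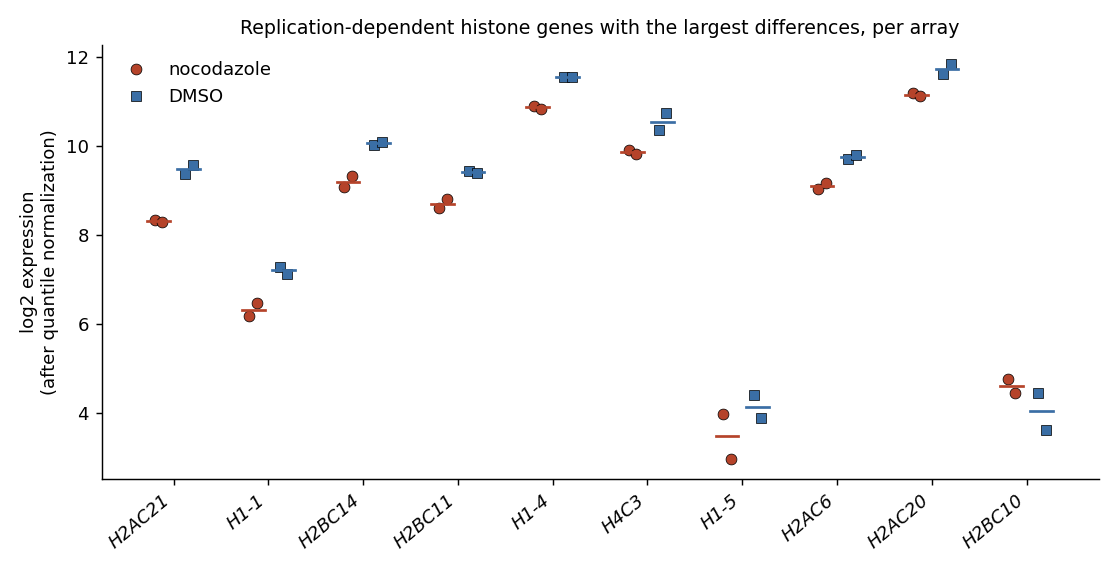
Log2 expression after quantile normalization of the 10 replication-dependent histone genes with the largest differences, 1 point per array, nocodazole as circles left of DMSO as squares, with bars at the group means. For 8 of the 10 both nocodazole points lie below both DMSO points, H1-5 overlaps, and for H2BC10 the nocodazole points lie higher. Choosing genes by the size of the difference favours separated groups, so this count is no support. Over all genes 18.7% separated downward and 17.7% upward.

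Among replication-dependent genes, both nocodazole arrays lay below both DMSO arrays for 14 of 32, above them for 1, and the groups overlapped for 17. Over all genes tested such separation was found for 18.7% in the lower direction and 17.7% in the higher one. The median log2 fold change of the 32 was -0.21, against 0.00 for all genes. An unadjusted p under 0.05 with a lower level was found for 13 of 32, against 5.05% of all genes. Signal strength moved with this split. All 14 genes with separated lower groups were among the 24 whose mean lay above array background, where the median was -0.30 and where 19.1% of all such genes separated downward. The other 8 genes had a median of 0.09 and no separated groups, and their differences compare signals near or under background. The split by signal is a description, with no test.

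The linker histone genes H1-1 to H1-6 encode the H1 proteins that compact chromatin between nucleosomes. Their 6 log2 fold changes had a median of -0.55, the lowest of the 4 families, and ranged from -0.88 to 0.41. H1-1 had 6.18 and 6.48 with nocodazole, against 7.29 and 7.14 with DMSO. This was a non-overlapping difference of -0.88 ± 0.16 that did not pass (limma adjusted p = 0.0786). H1-2, whose groups also separated, had a difference of -0.43 ± 0.10. H1-6, the testis linker histone gene, had a difference of 0.00 ± 0.16. H1-5 and H1-3 were under background on 3 and 4 arrays, and their differences of -0.67 ± 0.35 and 0.41 ± 0.29 rest on overlapping values.

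The 9 H2A genes had a median of -0.24, and 5 of them separated downward (18.7% of all genes). H2AC6 had 9.05 and 9.18 with nocodazole, against 9.71 and 9.81 with DMSO. Its difference of -0.65 ± 0.10 came close to the threshold (limma adjusted p = 0.0593). H2AC20 had 11.20 and 11.12 with nocodazole, against 11.62 and 11.84 with DMSO, a difference of -0.57 ± 0.10 (limma adjusted p = 0.0786). HIST1H2AH, now named H2AC12, and H2AC13 also separated, with -0.31 ± 0.12 and -0.19 ± 0.10. The H2A gene with a positive value, H2AC16, had 4.24 and 5.20 with nocodazole, against 4.68 and 3.63 with DMSO, and these values overlapped.

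The 15 H2B genes had the smallest median shift, -0.07, and ranged from -0.86 to 0.57. H2BC11 had 8.62 and 8.81 with nocodazole, against 9.44 and 9.40 with DMSO, a separated difference of -0.70 ± 0.11 that fell just short (limma adjusted p = 0.0577). H2BC11 has a further row, and the mean of both rows gave -0.51 ± 0.10 (limma adjusted p = 0.118). H2BC9 and H2BC15 separated with -0.43 ± 0.17 each. H2BC12 and H2BC21 are among the replication-dependent genes known also to give polyadenylated mRNAs in cells that have stopped dividing. These 2 are not a full list of such genes, so their values do not describe the set. Polyadenylation was not measured here, and its relation to the changes of these or other histone genes was not tested. H2BC12 had 12.41 and 12.62 with nocodazole, against 12.76 and 12.76 with DMSO, a difference of -0.24 ± 0.09 (limma adjusted p = 0.459). The equal DMSO values come from the normalization, since the deposited ones were 12.78 and 12.98. The difference was -0.065 without nocodazole replicate 2 and -0.37 without nocodazole replicate 3. H2BC21 had 9.48 and 9.57 with nocodazole, against 9.42 and 9.62 with DMSO. Its difference was 0.00 ± 0.11, with a 95% interval from -0.25 to 0.26, which leaves out changes as large as that of H2BC14.

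H2BC10 was the 1 member whose nocodazole arrays lay above both DMSO arrays, at 4.77 and 4.46 with nocodazole, against 4.45 and 3.64 with DMSO. The nearest values of the groups, 4.458 and 4.449, differ by far less than the arrays of either group. It was under background on 1 array. Its difference of 0.57 ± 0.29 did not pass (limma adjusted p = 0.628), and was 0.16 without DMSO replicate 3 and 1.01 without DMSO replicate 2. The other positive values among H2B genes were smaller. H2BC6 had a difference of 0.34 ± 0.33 and lay under background on all 4 arrays. HIST2H2BF (now H2BC18), H2BC3, H2BC26 and H2BC1 had differences between 0.04 and 0.15. Of these, HIST2H2BF lay under background on 2 arrays and H2BC1 on all 4.

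Of the H4 genes, H4C3 had 9.93 and 9.83 with nocodazole, against 10.36 and 10.74 with DMSO. The groups separated, and the difference of -0.67 ± 0.13 did not pass (limma adjusted p = 0.114). H4C7, under background on all 4 arrays, had 0.24 ± 0.34. No H3C gene had a row of its own.

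The clusters lie on chromosomes 6 and 1. The 26 genes of chromosome 6 had a median of -0.24 and 12 separated downward, against -0.04 and 2 of 6 on chromosome 1. Over all genes 18.7% separated downward. The 2 histone genes on chromosome 1 that separated were H2AC21 and H2AC20, and the difference between the chromosomes was not tested.

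**Figure D2:**
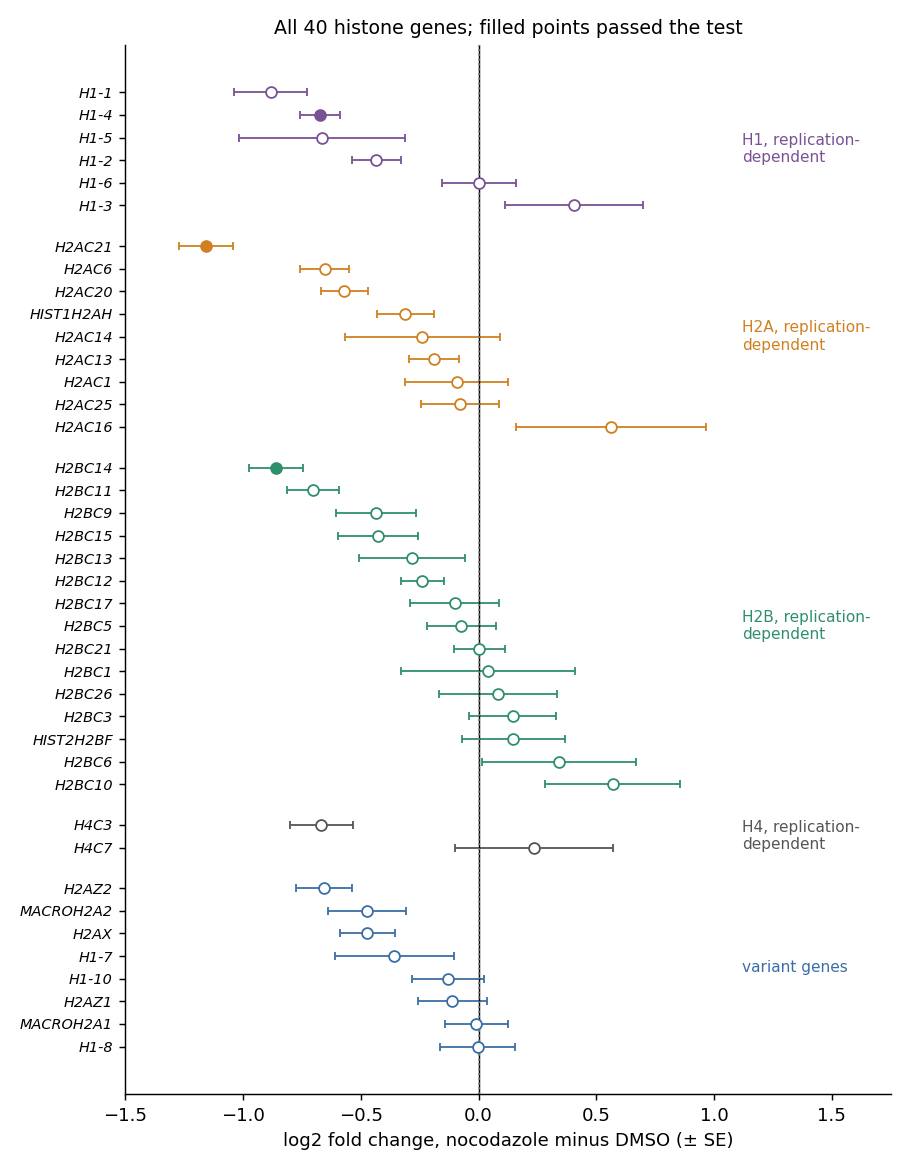
Log2 fold change, nocodazole minus DMSO, of all 40 histone genes after quantile normalization, grouped by family, with bars of 1 SE and a dotted line at the median of all genes, which falls on 0. Filled points, H2AC21, H2BC14 and H1-4, passed the test; the other H1 and H2A genes lie mostly left of the line and the H2B genes spread to both sides.

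None of the 8 variant genes passed limma's test after quantile normalization, where 3 had an unadjusted p under 0.05 and a lower level (5.05% of all genes). Their median was -0.24 (-0.39 without nocodazole replicate 2, -0.11 without DMSO replicate 2), against -0.21 for the replication-dependent genes; the difference between the classes was not tested. All 8 lay above background on all 4 arrays, all 8 differences were at or below 0 to 2 decimals, and 3 of 8 separated downward (18.7% of all genes). Of 4 measured haematopoietic marker genes 3 lay above background on all 4 arrays too, so that level does not by itself show expression. H2AZ2 encodes H2A.Z.2, a variant placed beside transcription start sites. It had 7.62 and 7.78 with nocodazole, against 8.38 and 8.32 with DMSO. The difference was -0.66 ± 0.12 (limma adjusted p = 0.0880).

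Its near relative H2AZ1, which encodes H2A.Z.1, had 8.61 and 8.99 with nocodazole, against 8.99 and 8.83 with DMSO. These values overlapped, and the difference was -0.11 ± 0.15. H2AX, whose protein is phosphorylated at DNA breaks, had 8.36 and 8.40 with nocodazole, against 8.96 and 8.75 with DMSO, a separated difference of -0.47 ± 0.12 (limma adjusted p = 0.211).

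The macroH2A genes encode large H2A variants found on silent chromatin such as the inactive X. MACROH2A2 had 7.37 and 7.18 with nocodazole, against 7.96 and 7.54 with DMSO, and separated with -0.47 ± 0.17 (limma adjusted p = 0.407; -0.27 without DMSO replicate 2). MACROH2A1 had 6.61 and 6.60 with nocodazole, against 6.63 and 6.60 with DMSO, a difference of -0.01 ± 0.13. The 2 genes thus had unlike point values, but whether they differ was not tested.

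Of the linker variants, H1-10, the somatic H1.10 gene, had 7.90 and 7.51 with nocodazole, against 7.78 and 7.90 with DMSO, a difference of -0.13 ± 0.15. The testis gene H1-7 had 5.21 and 4.86 with nocodazole, against 5.73 and 5.05 with DMSO, a difference of -0.36 ± 0.25. The oocyte gene H1-8 had 6.20 and 6.14 with nocodazole, against 6.31 and 6.04 with DMSO, a difference of 0.00 ± 0.16. For all 3 the groups overlapped.

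On the deposited values the nocodazole arrays were lower as a whole: the median of all genes was -0.45, and limma called 24.9% of all genes lower. There 16 of 32 replication-dependent and 5 of 8 variant genes passed as lower and 0 as higher. The medians were -0.62 and -0.71. After median centring they were -0.20 and -0.29, against -0.03 for all genes, and 0 members passed limma's test. Limma's unadjusted p was under 0.05 there for 3 replication-dependent and 2 variant genes, and for 1163 of all 21469 genes. Medians of both classes were thus below that of all genes on each of the 3 scales.

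**Figure D3:**
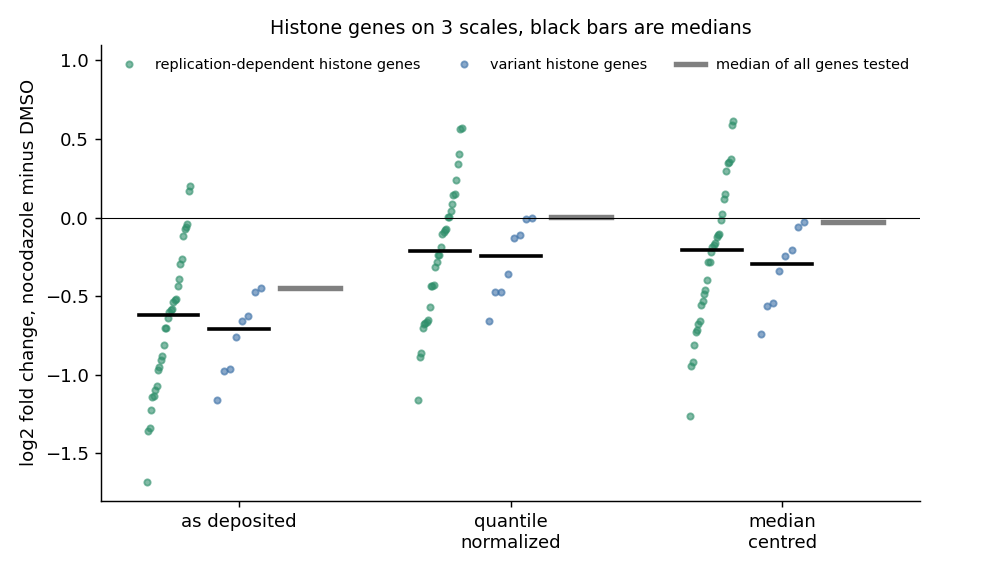
Log2 fold change, nocodazole minus DMSO, of each replication-dependent gene (green) and variant gene (blue) on the deposited, quantile-normalized and median-centred scales, with black bars at the class medians and grey bars at the median of all genes. The class medians lie below the grey bar on all 3 scales, and all points sit lower on the deposited one.

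Many histone genes are so alike that the array annotation assigns a row to several of them. Rows with several gene names were taken here when at least 1 of the names was a histone gene. There were 40 of these rows, and 8 of the members above were also named on one, so a member's own row may share signal with near-identical genes. These rows were tested together with the 21469 genes, on values normalized over all non-control rows. Of the 40, 2 passed as lower, 0 as higher and 34 had a difference below 0. Over all 21509 rows of this fit, 0.107% passed as lower, 0.181% as higher and 52.4% had a difference below 0. Many of the 40 shared rows carry the same gene names, so they are not 40 independent genes. An H2B row annotated to H2BC4, H2BC6, H2BC7, H2BC8 and H2BC10 had 9.28 and 9.30 with nocodazole, against 10.17 and 10.17 with DMSO, a difference of -0.88 ± 0.10 (limma adjusted p = 0.0219). H2BC6 and H2BC10 had positive differences on their own rows, which lay under background on 4 arrays and 1 array and did not pass.

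An H4 row annotated to 14 H4 genes, H4C3 among them, had 10.72 and 10.71 with nocodazole, against 11.46 and 11.47 with DMSO. It differed by -0.75 ± 0.09 (limma adjusted p = 0.0305). All 13 H4 rows had differences below 0, with a median of -0.29 and a range from -0.89 to -0.01. They carry the same 14 names, so their values are not independent genes.

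The H3C genes of the clusters were measured on 12 shared rows. Their median was -0.22, and 6 of 12 separated downward, against 20.2% of all rows in this fit. Each of these rows carried 10 or 3 gene names, so the 12 rows are not 12 independent genes. The lowest of the 12, annotated to 10 H3 genes, had 8.89 and 8.78 with nocodazole, against 9.58 and 9.49 with DMSO. Its difference of -0.70 ± 0.11 fell just short (limma adjusted p = 0.0573). The 7 H2A rows had a median of -0.60; that of H2AC4 and H2AC8 with the largest difference had -0.91 ± 0.14 (limma adjusted p = 0.0573). A row annotated to H3 genes together with H2AC7 had the lowest difference of all 40, -1.05 ± 0.22, and did not pass (limma adjusted p = 0.128). H3-3A and H3-3B encode the replication-independent variant H3.3, and their 2 rows each carried 3 gene names. These rows differed by -0.19 ± 0.14 and -0.15 ± 0.13, and their groups overlapped.

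**Figure D4:**
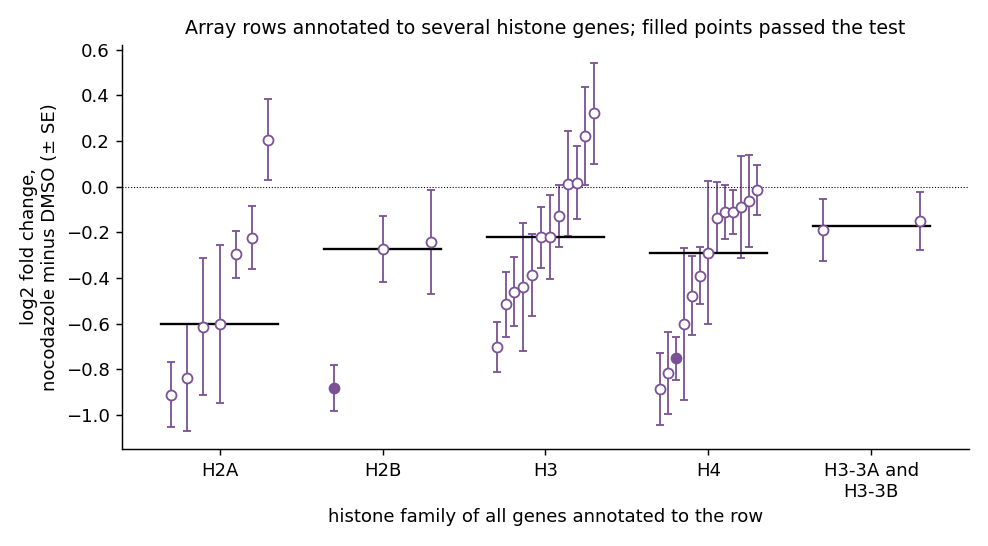
Log2 fold change, nocodazole minus DMSO, with bars of 1 SE, of 37 of the rows with several gene names, grouped by histone family, with black bars at the family medians. The 2 filled points, an H2B and an H4 row, passed the test; all 13 H4 rows lie below 0, while H2A and H3 rows lie on both sides.

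In the clusters H2A and H2B genes often lie head to head and share 1 promoter region. Among the members were 5 such pairs, with starts 215 to 245 bases apart. In H2BC21 and H2AC20, 236 bases apart on chromosome 1, the differences were 0.00 ± 0.11 and -0.57 ± 0.10. In H2AC14 and H2BC14, 245 bases apart, they were -0.24 ± 0.33 and -0.86 ± 0.11, but H2AC14 was under background on 3 arrays. In 2 more pairs the differences were -0.28 ± 0.22 for H2BC13 and -0.19 ± 0.10 for H2AC13, and -0.08 ± 0.17 for H2AC25 and 0.08 ± 0.25 for H2BC26. H2AC1 and H2BC1, the testis pair, were under background on all 4 arrays. The promoter windows of a pair share most of their bases, so their motif matches are not independent. No difference within a pair was tested.

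The genes that transcribe, process and degrade histone mRNA did not pass the test: 0 of 21 measured of the 22 listed, where limma gave an unadjusted p under 0.05 and a lower level for 2 (5.05% of all genes). On the deposited values 15 passed as lower, where 24.9% of all genes did. After quantile normalization their median was -0.07. Of the 21, 7 separated downward and 2 upward, against 18.7% and 17.7% of all genes. CCNE2, which encodes cyclin E2, a partner of the kinase CDK2 that activates NPAT, had 5.01 and 5.56 with nocodazole, against 5.86 and 6.17 with DMSO. Its separated difference of -0.74 ± 0.22 did not pass (limma adjusted p = 0.305) and moved between -1.001 without nocodazole replicate 3 and -0.47 without nocodazole replicate 2. NPAT itself had -0.38 ± 0.17 (-0.56 without DMSO replicate 2, -0.21 without DMSO replicate 3) and TUT4, a uridylyltransferase of histone mRNA decay, -0.39 ± 0.16. TUT7, the paralogue of TUT4 on the same list, had the highest value of the 21, 0.28 ± 0.19, and its groups overlapped. For SLBP the difference was -0.19 ± 0.12.

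A further list held genes of histone chaperones and of factors that work with them, such as SRCAP, EP400, HAT1 and IPO4. Of its 28 genes, 24 were measured, 0 passed limma's test and 10 had an unadjusted p under 0.05, all lower (5.05% of all genes). On the deposited values 20 passed as lower, where 24.9% of all genes did. Their median was -0.13, and 13 of 24 separated downward, against 18.7% of all genes. ASF1B, which hands new H3 and H4 to the replication machinery, had 7.12 and 7.30 with nocodazole, against 7.79 and 7.81 with DMSO, a difference of -0.59 ± 0.13 (limma adjusted p = 0.142). Its paralogue ASF1A had -0.49 ± 0.20 (-0.77 without nocodazole replicate 3, -0.21 without nocodazole replicate 2), and NASP, a chaperone that keeps a reserve of H3 and H4, -0.47 ± 0.12. DAXX and ATRX, which place H3.3, had 0.02 and 0.06.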

How the data were processed

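RNA of 4 U2OS samples, 2 per group, was measured on Affymetrix Human Transcriptome 2.0 arrays. The deposited table gives 1 log2 value per row and array; the authors used RMA in Partek 7.0 and the build hg19, per the submitters' processing notes, and the sources used here give no further settings. Deposited array medians over 64005 non-control rows were 5.00 and 4.71 for nocodazole and 5.49 and 5.06 for DMSO. The median of 23 antigenomic rows was taken as an array's background (4.36 and 3.72 for nocodazole, 4.81 and 4.02 for DMSO). Medians of 155 ERCC spike-in control rows were 4.79 and 4.30 for nocodazole and 5.34 and 4.60 for DMSO.

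Rows with 1 gene symbol were kept, and the row with the highest mean stood for each of 288 genes with several rows. The arrays were quantile normalized over the resulting 21469 genes. Nocodazole minus DMSO was tested with limma 3.58.1 in R 4.3.3 (lmFit, eBayes with a variance trend), two-sided, and p-values were adjusted over all genes by Benjamini-Hochberg at a threshold of 0.05. No replicate block was used. An exact permutation test of 2 against 2 cannot go below p = 0.333 and was not run. In simulated data for the 21469 genes limma recovered 97 of 100 changes of 1 and 100 of 100 changes of -2 (log2), with 18 unchanged genes called. The changes were placed only in genes with a mean at or above the median, so recovery in dimmer genes was not simulated. Noise was independent and normal with limma's own variance estimates, so these counts do not measure recovery on the real arrays.

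Members, lists, tests and the choice of genes to name were made with earlier results of these data known. Named by rule were members that passed, the 10 replication-dependent genes with the largest differences, the 5 most positive, the 5 with the highest mean, all variants, and 3 genes of each list; other genes, shared rows and head-to-head pairs were named after their values were seen. Promoters came from RefSeq (GRCh38.p14), a build other than hg19. Alternatives were the deposited values, median centring, no variance trend, no dim genes, the mean of a gene's rows, a replicate block, each array left out and, added after seeing the data, quantile normalization over all non-control rows.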

Additional observations from a re-analysis of the deposited data

How the results depend on the processing

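The number of all genes called was 5392 on the deposited values (51 higher, 5341 lower), 20 after median centring (19 higher, 1 lower), 10 without a variance trend, 141 of 17667 without dim genes (72 higher, 69 lower), 37 with the replicate block, and 72 and 60 with the mean of a gene's rows and with normalization over all non-control rows. The number of replication-dependent histone genes called was 16, 0, 0, 7 and 1 in the first 5 of these settings. Limma's unadjusted p was under 0.05 for 3 after centring and 11 without the trend, against 1163 and 1839 of all 21469 genes. With any 1 array left out limma called 0 genes (lowest 0, highest 0), with 1169 to 1515 at an unadjusted p under 0.05; there the lone array of a group is assumed to vary like the other. The deposited values called 5 variant genes, 15 histone mRNA processing genes and 20 genes of the chaperone list. Every other setting called 0 of each. Limma's unadjusted p was under 0.05 in those settings for up to 3, 4 and 10, against up to 3148 of all 21469 genes. The median of the replication-dependent genes was -0.62 on the deposited values, -0.30 without dim genes and -0.25 to -0.21 with 1 array left out (-0.25 without nocodazole replicate 2). That of the variant genes was -0.71 on the deposited values and -0.39 to -0.11 with 1 array left out (-0.39 without nocodazole replicate 2).

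The replicate numbers are shared by the groups, but the labels do not say that they mark a common batch. Deviations from the group means correlated at 0.22 between samples of the same number, over all genes, with 2 pairs. With the replicate block 37 genes were called, and of the histone genes 1, H2AC21 (limma adjusted p = 0.0408; 0.0528 for H2BC14 and 0.109 for H1-4). Of 315 results for 29 named genes in 11 settings, 264 kept their direction and their side of the threshold, 21 lost the call, 20 gained it and 10 changed sign. Those were H1-3, H2BC6 and H4C7 on the deposited values (-0.043, -0.070 and -0.12), and with 1 array left out H1-10 (-0.33 to 0.062), H1-8 (-0.14 to 0.14), H2AZ1 (-0.30 to 0.075), MACROH2A1 (-0.028 to 0.010), H2BC6 (-0.17 to 0.87) and H4C7 (-0.21 to 0.72). The sign turned for H1-10 and H1-8 without nocodazole replicate 3 (0.062 and 0.025), for H4C7 and H2AZ1 without nocodazole replicate 2, for H1-8 and MACROH2A1 without DMSO replicate 2, and for H2BC6 without DMSO replicate 3. None of these 7 genes had passed. On the deposited values the array-wide shift enters every difference; elsewhere the cause was not tested. Signals near background limit what could be seen for the 8 dim histone genes.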

Other observations

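Histone genes outside the 40 were also measured. CENPA, which encodes the H3 variant of centromeres, had 7.20 and 7.40 with nocodazole, against 8.04 and 7.70 with DMSO, and its groups did not overlap. Its difference was -0.57 ± 0.15 (SE, n = 2 per group; limma adjusted p = 0.250), and HJURP, the chaperone that places it, had -0.39 ± 0.13 (limma adjusted p = 0.353). H3-4, a testis H3 gene, had 7.71 and 7.66 with nocodazole, against 7.66 and 7.48 with DMSO, a difference of 0.12 ± 0.12. Both its nocodazole arrays lay above both DMSO arrays, with nearest values of 7.665 and 7.657. The germ-line genes H2BW1 and H2BW2 had differences of 0.04 ± 0.24 and -0.12 ± 0.22 with overlapping groups. H3-5, under background on 3 of 4 arrays, had -0.37 ± 0.52. None of these passed limma's test.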
